A study of Homo sapiens with 12 samples.

Results

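The late step into senescence was measured in control cells by setting day 10 of Ras activation against day 4. The cells were IMR90, human lung fibroblasts, immortalized with the telomerase subunit hTERT and carrying RasERT2, an oncogenic Ras fusion that is switched on by tamoxifen. The control carried a scramble hairpin (shScr), and the labels call its day 10 cells senescent and its day 4 cells at the beginning of senescence. The comparison used 4 of the 12 libraries of the series, 2 shScr libraries at day 10 and 2 shScr libraries at day 4, assigned to their groups by their labels. The other libraries were shIL1R cells, with a hairpin against the interleukin-1 receptor, at days 10 and 4, and growing cells of both genotypes at day 0, with 2 libraries in each group. Hairpins of 2 sequences against the receptor are named for the series, and the labels do not say which shIL1R library carried which. All groups shared hTERT, RasERT2 and doxycycline at 0.5 ug/ml, which induced the hairpin, so no group was free of hTERT or of an induced hairpin. Ras was activated with 200 nM tamoxifen or left off with ethanol, and all cells came from 1 line. Nothing in the labels says that replicates came from separate cultures, so p-values measure only the spread between these libraries, which may be technical.

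Oncogenic Ras first drives cells to divide and then stops the cell cycle through the CDK inhibitors p16 and p21, which keep the RB proteins active and E2F target genes off. In fibroblasts this arrest is followed by the senescence-associated secretory phenotype, in which cells release cytokines, chemokines, proteases and growth factors. Membrane-bound interleukin-1 alpha signals through its receptor and the transcription factors NF-kB and C/EBP beta to sustain that secretion, while lamin B1 loss and chromatin changes accompany the arrest.

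The 2 day 10 libraries held 24437308 and 29673299 reads assigned to genes, and the 2 day 4 libraries held 29046129 and 27896289. The values are normalized counts, in which 1 read was worth between 0.946 and 1.18. Replicates lay more than 2-fold apart for 426 of 13924 tested genes at day 10 and for 386 at day 4. The fibroblast marker list summed to 767652 and 812839 normalized counts at day 10, against 642483 and 623967 at day 4, and fibronectin (FN1) alone took 433059 and 491242 of it at day 10, against 236020.0 and 212847 at day 4. Over all 13924 tested genes 21.7% were called higher and 22.4% lower. Of the 15 tested markers of the fibroblast list 2, FN1 and LUM, were called higher and 5 lower, at a median log2 change of −0.37 (day 10 minus day 4). Among the lower ones was TBX5, a transcription factor of lung mesenchyme, with −0.77. With 1 of the 4 compared libraries left out, 2 were lower, or 1 higher and 3 lower without shScr day 10 replicate 1; 8 were lower without either shIL1R day 10 replicate. CDH5 of endothelium, CD3E and CD53 of leukocytes, and KRT5, KRT14, SFTPC and NKX2-1 of epithelium were at 0 in all 4 libraries. Other markers of those cell types were detected, and some of them changed. Of 7 tested endothelial markers 4 were called higher, as were 3 of 4 tested leukocyte markers, with values given further on. The leukocyte markers LAPTM5 and LCP1 reached the 10 normalized counts asked for testing only in day 10 libraries. Their part of that count was therefore largely set by the filter. HRAS, which the Ras fusion may also feed if it shares that sequence, had 51791 and 50789 normalized counts at day 10, against 29774 and 23749.6 at day 4. It was called higher at day 10, with a log2 change of 0.95 ± 0.17. IL1R1, the receptor that the hairpin of the other cells targets, had 1580.1 and 1239.6 normalized counts at day 10, against 1546 and 1423 at day 4 in shScr cells. The shIL1R cells had 295 and 279.9 at day 10, against 272 and 86.4 at day 4, below every shScr library of those days.

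The late step moved a large share of the transcriptome, about evenly in both directions. At day 10, 3023 of 13924 tested genes were higher and 3124 were lower than at day 4, which is 21.7% and 22.4% of the genes tested and 44.1% together. A gene is called here when limma's adjusted p was below 0.05, with Benjamini-Hochberg adjustment over all 13924 genes. Changes are given as log2 differences of normalized counts plus 1, day 10 minus day 4, with the standard error, and this scale understates changes of genes with few reads. Larger changes were more often upward. Of the called genes, 1048 were at least 2-fold higher and 880 at least 2-fold lower, 429 were at least 4-fold higher and 238 at least 4-fold lower, and 77 were at least 16-fold higher, against 1 gene, SPC25, at least 16-fold lower. The median log2 change over all genes was 0.01, with −0.79 and 0.88 as its 10th and 90th percentiles. The libraries of the 2 days did not overlap for 74% of tested genes and for all 6147 called genes. Lack of overlap therefore marks little here and adds nothing to a call. In bulk RNA, fewer cells expressing a gene and less RNA of that gene per cell cannot be told apart.

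**Figure D1:**
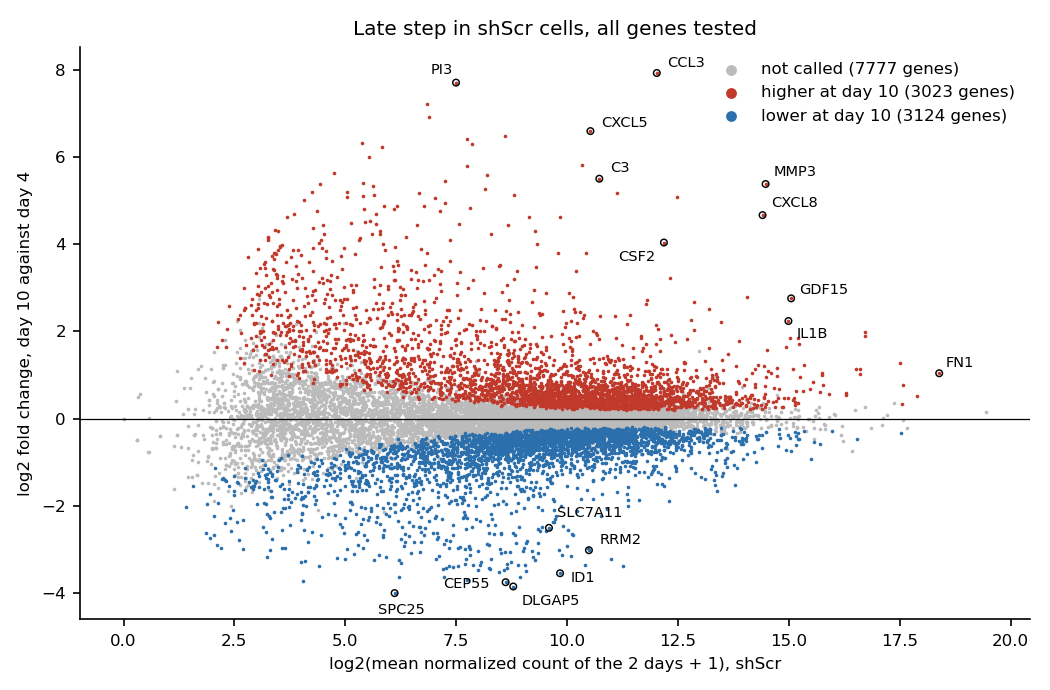
Log2 change of each of 13924 genes at day 10 against day 4 in shScr cells (vertical axis) by its mean level over those days, log2 of normalized count plus 1 (horizontal axis). Points are genes, coloured for the 3023 called higher, the 3124 called lower and the 7777 not called; the upward cloud reaches further, to CCL3 at 7.93, than the downward one, to SPC25 at −4.0.

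The genes with the greatest rise included the chemokines CCL3, CXCL5 and CCL20. CCL3, a chemokine that draws monocytes, had 5949 and 10614 normalized counts at day 10, against 45.7 and 21.8 at day 4, a log2 change of 7.93 ± 1.06. CXCL5, a neutrophil-attracting chemokine, had 1972 and 3864 at day 10, against 27.6 and 27.4 at day 4, a log2 change of 6.60 ± 0.43 with limma's adjusted p = 3.79e-06. CCL20, which attracts CCR6-bearing lymphocytes and dendritic cells, had 345 and 569 at day 10, against 5.71 and 3.79 at day 4, a log2 change of 6.29 ± 0.63. For all of them both day 10 libraries lay above both day 4 libraries, an order that the rule which picked them asked for. CXCR4, the receptor of the chemokine CXCL12, had 618 and 913 normalized counts at day 10, against 9.51 and 5.68 at day 4, a log2 change of 6.49 ± 0.84. Its values at day 10 lay apart from those at day 4 as well, by the same rule.

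Several of these genes were near 0 at day 4, where a ratio rests on single reads. MMP9, a gelatinase, had 33.0 and 70.9 normalized counts at day 10 and no read at day 4, which makes it at least 18.3-fold higher against a floor of 3 reads per library. CES1, a liver-type carboxylesterase, had 63.7 and 98.2 at day 10 and no read at day 4, at least 28.4-fold higher. PI3, the elastase inhibitor elafin, had 317 and 398 at day 10, against 1.90 and 0 at day 4, a ratio of 380 with an exact 95% interval of 105 to 3146. These intervals cover counting error only. TRIM63, a ubiquitin ligase known from muscle atrophy, had 132 and 320.0 at day 10, against 0.951 and 0 at day 4, a ratio of 492 (87.8 to 19464). CYP3A7, a cytochrome P450 of fetal liver, had 248 and 222 at day 10, against 0.951 and 0.946 at day 4, a ratio of 246 (67.8 to 2041). The rule that picked these genes asked for libraries ordered by day, so that order is no added support. Involucrin (IVL), a protein of the cornified envelope of skin, had 293 and 543 normalized counts at day 10, against 5.71 and 6.63 at day 4, a log2 change of 5.80 ± 0.75. The secreted cystatin CST4, a cysteine protease inhibitor, had 2452 and 2617 at day 10, against 36.1 and 53 at day 4, a log2 change of 5.82 ± 0.25. CST4, CCL3, the late cornified envelope genes and the serum amyloid genes have close copies among which reads can be split or shared, so their values may include reads of those copies.

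The genes with the greatest fall were mostly genes of mitosis. SPC25, a subunit of the NDC80 complex that ties kinetochores to microtubules, had 7.08 and 7.09 normalized counts at day 10, against 141 and 117 at day 4, a log2 change of −4.0 ± 0.58. NDC80 itself had 33.0 and 26.3 at day 10, against 428 and 365 at day 4, a log2 change of −3.70 ± 0.44. DLGAP5, a spindle protein, had 56.6 and 55.7 at day 10, against 826 and 823 at day 4, a log2 change of −3.85 ± 0.40. The day 10 replicates lay within a few counts of each other and below both day 4 libraries, an order that the rule which picked these genes asked for. DACH1, a transcriptional repressor, was also among the 15 genes with the greatest stable fall and had 5.90 and 16.2 normalized counts at day 10, against 134 and 134 at day 4, a log2 change of −3.63 ± 0.52. ID1, an inhibitor of basic helix-loop-helix factors and a target of BMP and SMAD signalling, had 149.9 and 135 at day 10, against 1930.0 and 1448 at day 4, a log2 change of −3.55 ± 0.19 with limma's adjusted p = 2.23e-06.

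Mitotic genes fell without exception among those tested. All 44 tested members of the mitosis and spindle checkpoint list were called lower, at a median log2 change of −3.06, against 22.4% of all genes called lower and an all-gene median of 0.01, and all 44 were called lower whichever of the 4 compared libraries was left out. CEP55, which completes the cut between daughter cells, had 53.1 and 52.7 normalized counts at day 10, against 795 and 662 at day 4, a log2 change of −3.75 ± 0.24. BUB1B, the spindle checkpoint kinase-like protein BubR1, had 59.0 and 65.8 at day 10, against 697 and 704 at day 4, a log2 change of −3.47 ± 0.38. The promoters of these 2 genes are shown because they hold the core of the cell cycle homology region, a promoter element of genes expressed in G2 and mitosis. The core is written TTTGAA and was searched on both strands in the stretch from 250 bases before to 50 bases after each start; capitals mark it, and on CEP55 it appears as its reverse complement, TTCAAA. Sequences are from RefSeq, GRCh38.p14, 5′ to 3′ on the gene's strand, CEP55 at chr10:93496362-93496661 (+) and BUB1B at chr15:40160819-40161118 (+).
CEP55: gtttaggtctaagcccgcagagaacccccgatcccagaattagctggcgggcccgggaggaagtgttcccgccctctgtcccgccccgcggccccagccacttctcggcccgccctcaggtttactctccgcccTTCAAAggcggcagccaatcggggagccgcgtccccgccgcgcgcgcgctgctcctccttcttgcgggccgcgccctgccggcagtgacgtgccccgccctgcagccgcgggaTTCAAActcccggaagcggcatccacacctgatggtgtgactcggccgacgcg
BUB1B: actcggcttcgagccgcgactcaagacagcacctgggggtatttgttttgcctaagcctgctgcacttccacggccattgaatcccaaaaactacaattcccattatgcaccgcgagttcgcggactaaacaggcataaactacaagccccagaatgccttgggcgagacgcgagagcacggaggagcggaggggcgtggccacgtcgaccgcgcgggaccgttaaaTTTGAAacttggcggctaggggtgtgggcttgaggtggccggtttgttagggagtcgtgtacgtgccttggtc

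The same letters stood in 25 of 38 promoters of the mitosis list (65.8%), against 1 of 33 promoters of the DNA replication list (3.03%), 395 of 2563 promoters of genes called lower (15.4%), 177 of 2390 of genes called higher (7.41%), 9.82% of 10911 promoters of tested genes and 15.4% of all promoters in the table. A match describes the letters in this window and is no measure of binding. MKI67, the proliferation marker Ki-67, had 216 and 257 normalized counts at day 10, against 1999 and 1590.1 at day 4, a log2 change of −2.91 ± 0.43. CCNA2, cyclin A2, had 90.9 and 107 at day 10, against 653 and 591 at day 4, a log2 change of −2.64 ± 0.36. CDK1, the mitotic kinase, and TOP2A, the topoisomerase of dividing cells, fell with log2 changes of −3.34 and −3.22. Every mitotic gene named thus fell well beyond the spread of its replicates.

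DNA replication genes fell too, by less, beside 22.4% of all genes called lower. Of 37 tested, 36 were called lower and none higher, with a median log2 change of −1.36, and between 30 and 33 were called lower with 1 compared library left out. RRM2, the ribonucleotide reductase subunit that supplies deoxynucleotides, had 296 and 335 normalized counts at day 10, against 2647 and 2476 at day 4, a log2 change of −3.02 ± 0.33. POLE2, a subunit of the leading-strand polymerase, had 8.26 and 8.10 at day 10, against 66.6 and 68.1 at day 4, and TK1, thymidine kinase, had 117 and 145 at day 10, against 1012 and 888 at day 4. Their log2 changes were −2.90 and −2.86, with no overlap between days, as for all called genes. Checkpoint and repair genes followed, with 20 of 23 lower, none higher and a median of −2.02. BLM, the helicase mutated in Bloom syndrome, fell with a log2 change of −3.08. FANCD2, the central protein of crosslink repair, and XRCC2, a protein of homologous recombination, fell with changes of −2.80 and −2.78.

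**Figure D2:**
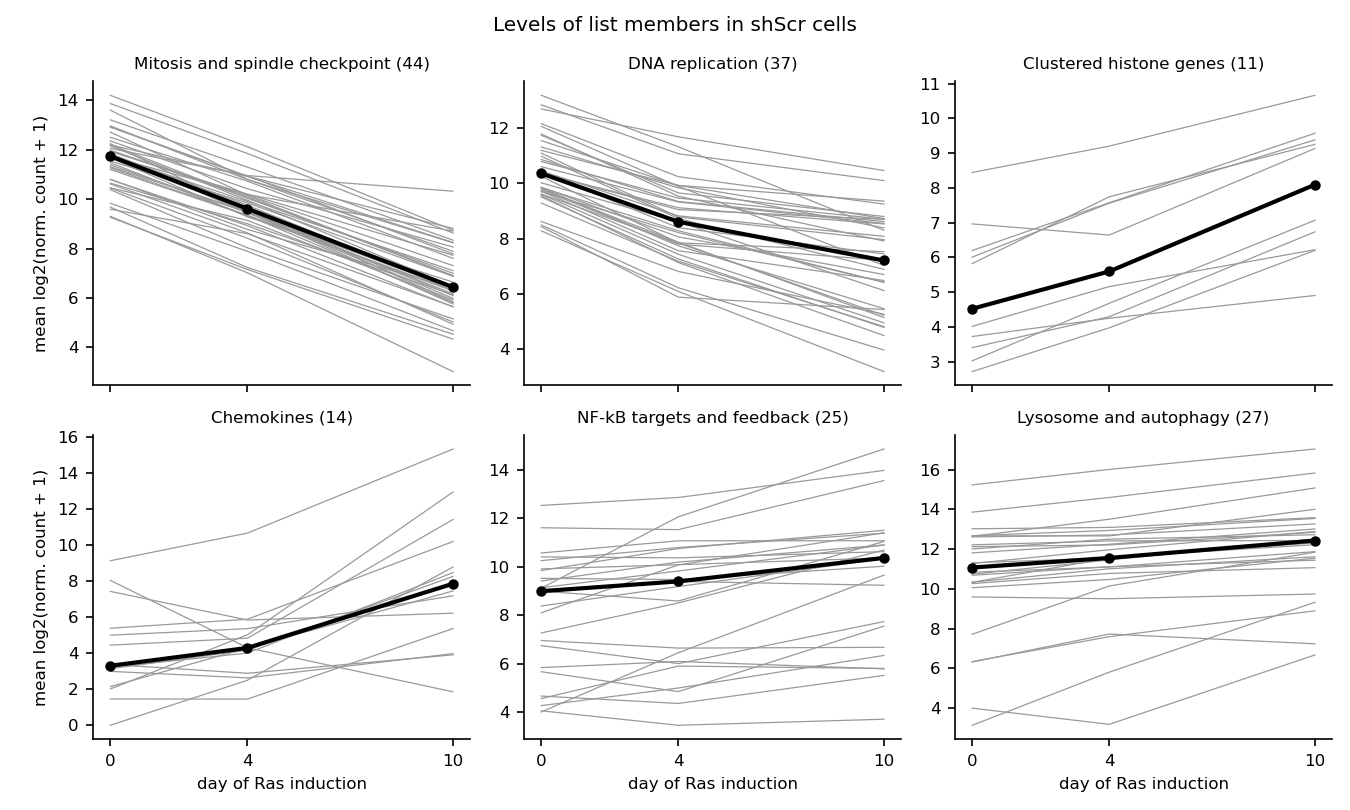
Level of each member, log2 of normalized count plus 1 averaged over 2 libraries, at days 0, 4 and 10 in shScr cells for 6 gene lists; thin lines are genes and the thick line is the median. The mitosis and replication medians are lower at day 10 than at day 4, while the chemokine, NF-kB, histone and lysosome medians are higher.

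Both CDKN2A and CDKN1A, which encode the main CDK inhibitors of senescence, rose. CDKN2A, which encodes p16 and ARF, had 583 and 619 normalized counts at day 10, against 244 and 240.4 at day 4, a log2 change of 1.31 ± 0.12. CDKN1A, which encodes p21, had 69197 and 79731 at day 10, against 35895 and 36085 at day 4, a log2 change of 1.05 ± 0.24. In both cases the days did not overlap, as for all called genes. CDKN2B, which encodes p15, had 1998 and 1486 at day 10, against 1463 and 1818 at day 4, overlapping values that were not called, and its sign depended on which library was used. RBL1, the RB relative p107, had 87.3 and 90.1 at day 10, against 271 and 278 at day 4, a log2 change of −1.62 ± 0.15. Of the 10 tested CDK inhibitor and RB family genes, 3 were higher and 3 lower, beside 21.7% and 22.4% of all genes; without shScr day 4 replicate 2 these counts were 2 and 1. Among E2F factors and G1 cyclins 2 of 17 were higher and 6 lower. CCNE1 and CCND2, the G1 cyclins E1 and D2, were higher by 1.40 and 1.36, and E2F8, a repressor of the family, was lower with −3.0. E2F1, an activator, had 217 and 212 normalized counts at day 10, against 420.4 and 378 at day 4, a log2 change of −0.89 ± 0.20. Targets of p53 were called higher in 11 and lower in 2 of 26 cases, but 4 and 0 without shScr day 4 replicate 1, 7 and 1 without shScr day 4 replicate 2, 6 and 0 without shScr day 10 replicate 1, and 5 and 2 without shScr day 10 replicate 2. BBC3, the cell death gene PUMA, was higher with 1.04 ± 0.22 and SPATA18, a p53-induced gene of mitochondrial quality control, with 1.16 ± 0.23.

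Lamina and chromatin genes were mostly lower and histone genes higher, beside 21.7% of all genes called higher and 22.4% lower. Of 28 lamina and chromatin genes 20 fell and 1 rose, with a median of −0.71. LMNB1, lamin B1, whose loss marks senescence, had 82.6 and 90.1 normalized counts at day 10, against 279.7 and 361 at day 4, a log2 change of −1.87 ± 0.41 with limma's adjusted p = 0.00411. HMGB2, a chromatin protein tied to secretory gene loci in senescence, had 395 and 454 at day 10, against 909 and 779 at day 4, a log2 change of −0.99 ± 0.13. UHRF1, which guides maintenance DNA methylation, fell with a log2 change of −2.24. ASF1B, a histone chaperone of dividing cells, and EZH2, the Polycomb methyltransferase, fell with changes of −2.61 and −1.48. Of 11 tested clustered histone genes 10 rose and none fell, with a median of 2.00. HIST1H1C, linker histone H1.2, had 558 and 563 normalized counts at day 10, against 88.5 and 111 at day 4, a log2 change of 2.49 ± 0.24. HIST1H2BC had 261 and 284 at day 10, against 46.6 and 48.3 at day 4. Histone genes are near-identical in sequence, and the libraries were made from poly(A) RNA, which most replication-dependent histone transcripts lack, so these values cover their polyadenylated part.

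Interleukin-1 ligands and their natural antagonist rose, and the receptor did not pass the test. IL1A, interleukin-1 alpha, had 8779 and 9814 normalized counts at day 10, against 1158 and 843 at day 4, a log2 change of 3.23 ± 0.54. IL1B, interleukin-1 beta, had 49464 and 57823 at day 10, against 13017 and 9856 at day 4, a log2 change of 2.24 ± 0.53 with limma's adjusted p = 0.00584. IL1RN, the receptor antagonist, had 103 and 124 at day 10, against 2.85 and 2.84 at day 4, a log2 change of 4.88 ± 0.74. In each case the lower day 10 library lay above the higher day 4 library, as for every gene called higher. IL33, an alarmin of the same family, had 104 and 91.1 at day 10, against 9.51 and 12.3 at day 4, a log2 change of 3.06 ± 0.40. IRAK3, a pseudokinase that restrains signalling from the receptor, had 496 and 462 at day 10, against 190.2 and 190.2 at day 4, a log2 change of 1.33 ± 0.15. The log2 change of IL1R1 was −0.08 ± 0.42, which was not called. The count over the whole list, next, stands beside 21.7% of all genes called higher and 22.4% lower. Of 19 tested ligands, receptors and adaptors 7 were higher and 3 lower, at a median of 0.27; 6 were higher whichever compared library was left out, and 1 was lower without shScr day 4 replicate 2 or shScr day 10 replicate 2.

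Chemokines had the highest median change of the secreted groups listed. Of 14 tested, 11 were higher and 1 lower, at a median log2 change of 4.00, against 21.7% of all genes higher, and 10 were higher whichever compared library was left out. CXCL8, interleukin-8, had 38965 and 44346 normalized counts at day 10, against 2426 and 1099 at day 4, a log2 change of 4.67 ± 0.66. CXCL1, a ligand of the neutrophil receptor CXCR2, had 1266 and 1097 at day 10, against 67.5 and 50.2 at day 4, a log2 change of 4.32 ± 0.53. The neighbouring CXCL2, CXCL3 and CXCL6 rose by 4.09, 4.47 and 3.92, and CXCL1, CXCL2 and CXCL3 are close copies. CXCL12, the ligand of CXCR4, had 0 and 12.2 at day 10, against 16.2 and 21.8 at day 4, a log2 change of −2.45 ± 0.83. That call was lost without shScr day 4 replicate 1, without shScr day 4 replicate 2 and without shScr day 10 replicate 1, with log2 changes between −4.31 and −0.59. The promoters of CXCL1 and CXCL5 are shown because both hold a form of the kB site that NF-kB binds, that reads GGG, any 3 bases, then TTCC, and was searched on both strands. Capitals mark it, and each run in capitals holds 1 match on each strand. Sequences are from RefSeq, GRCh38.p14, 5′ to 3′ on the gene's strand, CXCL1 at chr4:73869143-73869442 (+) and CXCL5 at chr4:73998628-73998927 (−).
CXCL1: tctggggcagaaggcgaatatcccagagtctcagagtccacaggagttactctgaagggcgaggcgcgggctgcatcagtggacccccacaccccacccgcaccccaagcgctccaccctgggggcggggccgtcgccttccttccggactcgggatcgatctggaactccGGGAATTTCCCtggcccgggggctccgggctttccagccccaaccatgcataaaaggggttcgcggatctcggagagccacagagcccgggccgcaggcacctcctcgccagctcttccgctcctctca
CXCL5: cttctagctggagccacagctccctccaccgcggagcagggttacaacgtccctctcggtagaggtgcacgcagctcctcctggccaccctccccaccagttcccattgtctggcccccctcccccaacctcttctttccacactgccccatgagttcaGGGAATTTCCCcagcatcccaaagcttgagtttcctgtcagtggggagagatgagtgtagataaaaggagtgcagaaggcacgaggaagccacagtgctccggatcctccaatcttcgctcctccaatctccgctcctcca

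This form stood in 7 of 12 chemokine promoters (58.3%) and 7 of 23 promoters of NF-kB target genes (30.4%), a list chosen for NF-kB regulation. It stood in 3 of 10 promoters of interleukins and colony-stimulating factors and 0 of 12 of proteases and their inhibitors. The DNA replication and mitosis lists, which fell, had 12.1% and 10.5%. Promoters of genes called higher had it in 7.41%, no more than the 8.27% of genes called lower. The share was 7.63% of promoters of tested genes and 6.47% of all promoters in the table. IL6, the main interleukin of the secretory phenotype, had 1899.8 and 1801 normalized counts at day 10, against 375 and 166 at day 4, a log2 change of 2.89 ± 0.43. CSF3, the granulocyte colony-stimulating factor, had 1790.1 and 1735 at day 10, against 79.9 and 61.5 at day 4, a log2 change of 4.63 ± 0.66. CSF2, which supports granulocytes and macrophages, had 8296 and 9083 at day 10, against 890.3 and 311 at day 4, a log2 change of 4.04 ± 0.70. Day 4 replicates of CSF2 lay further apart than day 10 replicates, and the days did not overlap, as for all called genes. EBI3, a subunit of interleukins 27 and 35, had 82.6 and 81.0 at day 10, against 0.951 and 5.68 at day 4. Beside the next count, 21.7% of all genes were called higher and 22.4% lower. Of 17 interleukins, IL-6 family members and colony-stimulating factors 13 were higher and 1 lower, at a median of 2.01, and none was lower without shScr day 10 replicate 2.

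NF-kB targets, complement and acute phase genes rose in part. Of 25 NF-kB targets and feedback genes 13 were higher and none lower, at a median of 1.07, beside 21.7% of all genes called higher and 22.4% lower. ICAM1, the adhesion molecule for leukocyte integrins, had 26921 and 32518 normalized counts at day 10, against 5128 and 3529.5 at day 4, a log2 change of 2.80 ± 0.47. BCL2A1, a survival protein, had 758 and 848 at day 10, against 76.1 and 97.5 at day 4, a log2 change of 3.20 ± 0.46. SOD2, the mitochondrial superoxide dismutase, had 11317 and 12729.9 at day 10, against 3122 and 2783 at day 4, a log2 change of 2.03 ± 0.13. Both day 10 libraries exceeded both day 4 libraries for each, as for every gene called higher. NFKBIZ, a nuclear inhibitor of kB that serves as a coactivator, had 1717 and 2104 at day 10, against 1529.6 and 885 at day 4, a log2 change of 0.71 ± 0.28 that was not called, with limma's adjusted p = 0.0622. NFKBIZ passed without shScr day 4 replicate 1 and without either shIL1R day 10 replicate, with limma's adjusted p between 0.0133 and 0.0174. C3, the central complement protein, had 3168 and 3454 at day 10, against 82.8 and 62.5 at day 4, a log2 change of 5.50 ± 0.56. SAA1, the acute phase protein serum amyloid A, had 73.2 and 149 normalized counts at day 10, against 0.951 and 0 at day 4, a ratio of 240 with an exact interval of 42.6 to 9528. Of 12 tested complement and acute phase genes 5 were higher, none was lower and 7 were not called, at a small median of 0.22. The leukocyte marker list also summed higher, to 9120 and 7505 normalized counts at day 10, against 4786 and 4422 at day 4, and most of each sum was CD68, a lysosomal protein of macrophages that fibroblasts express too. CD3E and CD53 were at 0 in all 4 libraries, and 6 of the 11 markers in each day 10 library were at or under the floor of 3 reads. Of 4 tested markers 3 were called higher and 1 lower. Among them LAPTM5 and LCP1 were tested only because of their day 10 values, so their rise adds little to that count. LAPTM5, a lysosomal protein of blood cells, had 142 and 119.5 at day 10, against 1.90 and 6.63 at day 4, a log2 change of 4.80 ± 0.91. LCP1, the actin bundler L-plastin, had 10.6 and 27.3 at day 10, against 0.951 and 0.946 at day 4, a ratio of 20.7 with an exact interval of 5.32 to 177, and its call was lost without shScr day 10 replicate 2. CD68 rose by 0.85, and CORO1A, the actin regulator coronin 1A, fell with a log2 change of −1.60. The part of these markers in the inflammatory results was not tested.

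**Figure D3:**
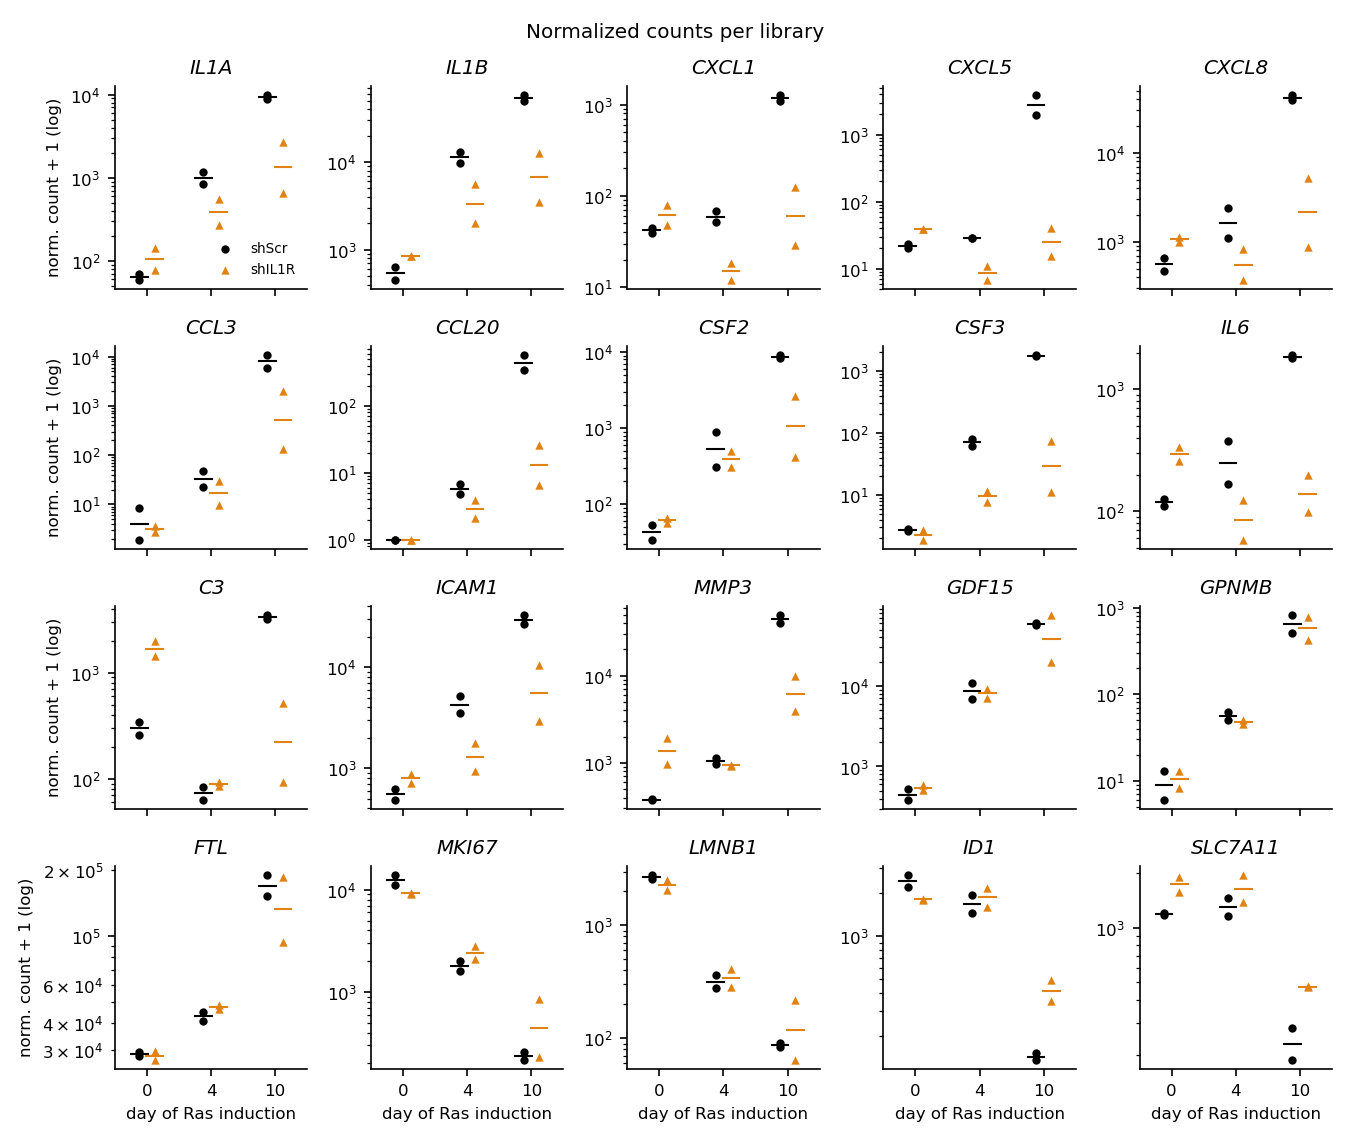
Normalized counts plus 1 (log axis) of 20 genes in every library at days 0, 4 and 10; black circles are shScr, orange triangles shIL1R, and the bar is the geometric mean of 2 libraries. In shScr cells CXCL1 is at 1266 and 1097 and IL1A at 8779 and 9814 at day 10, above every day 4 library, while MKI67 is at 216 and 257, below every day 4 library.

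Interferon-stimulated genes split. Of 30 tested, 11 were higher and 6 lower, and the counts moved with the library left out, to 6 and 3 without either shScr day 4 replicate, 4 and 7 without shScr day 10 replicate 1, and 12 and 2 without shScr day 10 replicate 2. MX1, an antiviral GTPase, had 162 and 30.4 normalized counts at day 10, against 17.1 and 14.2 at day 4, and its call was lost without either shScr day 4 replicate and without shScr day 10 replicate 1. GBP1, a guanylate-binding protein, had 335 and 282 at day 10, against 1041 and 966 at day 4, a log2 change of −1.70 ± 0.14. CMPK2, a mitochondrial nucleotide kinase induced with antiviral genes, had 63.7 and 44.6 at day 10, against 4.76 and 1.89 at day 4, a log2 change of 3.73 ± 0.48. The toll-like receptor TLR2 had 24.8 and 46.6 at day 10, against 0 and 1.89 at day 4, a ratio of 38.5 with an exact interval of 10.2 to 324. TLR2 was the only member called higher of 10 tested innate sensor and inflammasome genes. In that list 5 were called lower, at a median log2 change of −0.48, and how many were lower depended on the library left out. Antigen presentation genes moved 1 way, with 6 of 9 higher, none lower and a median of 0.67. HLA-B, a class I molecule, had 5545 and 4300.0 at day 10, against 1886 and 1493 at day 4, a log2 change of 1.54 ± 0.13; class I genes are close copies of each other.

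Several secreted proteases rose. The list count given below stands beside 21.7% of all genes called higher and 22.4% lower. MMP3, stromelysin 1, had 40035 and 48905 normalized counts at day 10, against 1146 and 979.6 at day 4, a log2 change of 5.38 ± 0.37 with limma's adjusted p = 4.00e-06. MMP1, interstitial collagenase, had 259540.0 and 266756 at day 10, against 116449 and 102052 at day 4, a log2 change of 1.27 ± 0.18. MMP10, stromelysin 2, had 333 and 447 at day 10, against 106 and 96.5 at day 4, a log2 change of 1.92 ± 0.32. All 3 were higher in both day 10 libraries, as is every gene called higher. TIMP1, a metalloproteinase inhibitor, had 98146 and 92771 at day 10, against 65448 and 65038 at day 4, a log2 change of 0.55 ± 0.10. Of 27 proteases, activators and inhibitors 14 were higher and 3 lower, at a median of 0.55, and between 10 and 12 were higher and 1 to 3 lower with 1 compared library left out, 1 lower without shScr day 4 replicate 1 or shScr day 10 replicate 1. A form of the AP-1 site, TGANTCA, which is its own reverse complement, stood in 5 of 12 promoters of the protease list (41.7%). Only these 12 promoters were found for the 27 tested members. The form stood in 5.82% of promoters of genes called higher and 4.33% of genes called lower. It stood in 4.81% of promoters of tested genes and 7.76% of all promoters in the table.

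Growth factors were called in both directions, beside 21.7% of all genes called higher and 22.4% lower. GDF15, a stress cytokine of the TGF-beta superfamily, had 60122 and 57776 normalized counts at day 10, against 10994 and 6888 at day 4, a log2 change of 2.76 ± 0.46. NRG1, a ligand of ERBB receptors, had 4418 and 5869.7 at day 10, against 1397 and 1329.8 at day 4, a log2 change of 1.90 ± 0.13. TGFA, an EGF receptor ligand, had 15.3 and 20.3 at day 10, against 0 and 0.946 at day 4, a ratio of 37.9 with an exact interval of 6.35 to 1542. FGF1, an acidic fibroblast growth factor, moved down, with 93.2 and 84.1 at day 10, against 644 and 486 at day 4, a log2 change of −2.65 ± 0.19. Of 31 growth factors 14 were higher and 8 lower, with 9 higher without shScr day 4 replicate 2. BMP2 had 10541 and 10208 at day 10, against 8445 and 6196 at day 4, a log2 change of 0.52 ± 0.18 with limma's adjusted p = 0.0375, and its call was lost without either shScr day 0 replicate, without shScr day 4 replicate 2 and without either shScr day 10 replicate. Several carriers of insulin-like growth factor rose, among them IGFBP3, with 7271 and 9235 at day 10, against 2326 and 2039 at day 4, a log2 change of 1.91 ± 0.21. IGFBP1 and IGFBP4 rose by 2.43 and 1.84. Of 9 tested genes of this growth factor axis, 5 were higher and 2 lower, IGF2 with −0.84 and the carrier IGFBP6 with −0.22.

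Feedback and ERK response genes downstream of Ras were called about as often as all genes. Of 27 tested, 5 were higher and 7 lower, beside 21.7% and 22.4% of all genes, at a median of −0.14, and 3 were lower without shScr day 4 replicate 1 or shScr day 10 replicate 1. DUSP4, a nuclear MAP kinase phosphatase, had 2809.7 and 2331 normalized counts at day 10, against 645 and 665 at day 4, a log2 change of 1.96 ± 0.14. DUSP6, the cytoplasmic ERK phosphatase, had 9771 and 10339.8 at day 10, against 13701 and 11278 at day 4, a log2 change of −0.31 ± 0.12 with limma's adjusted p = 0.0558, and it passed without shScr day 4 replicate 2 and without any 1 of the 4 shIL1R libraries of days 4 and 10, with limma's adjusted p between 0.0290 and 0.0417. EGR1, an immediate early factor, had 5027 and 5406 at day 10, against 9564 and 4952 at day 4, a log2 change of −0.40 ± 0.33, also not called. Of 22 AP-1, KLF and immediate early factors 9 were higher and 2 lower. ATF3, a stress-induced factor, and KLF4, a Krüppel-like factor, were higher by 2.39 and 2.35, and KLF2, known from quiescent endothelium, was lower with −1.81. CEBPB, the factor C/EBP beta, had 4855 and 5089.9 at day 10, against 2570.2 and 1601 at day 4, a log2 change of 1.29 ± 0.27.

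ID1, ID2 and ID3 fell while BAMBI rose. ID3 had 251 and 305 normalized counts at day 10, against 1817 and 1026 at day 4, and ID2 had 138 and 144 at day 10, against 566 and 319.9 at day 4, with log2 changes of −2.30 and −1.59 beside the −3.55 of ID1. BAMBI, a decoy receptor of the TGF-beta family, had 1312 and 1273 at day 10, against 205 and 149.5 at day 4, a log2 change of 2.88 ± 0.32. The list counts that follow stand beside 21.7% of all genes called higher and 22.4% lower. Of 21 ID and SMAD feedback genes 6 were higher and 9 lower, and 5 were lower without shScr day 4 replicate 1. In the Notch list 5 of 11 were higher and 3 lower; with 1 compared library left out, 2 to 4 were higher, 2 of them without shScr day 4 replicate 2 or shScr day 10 replicate 2 and 3 without shScr day 4 replicate 1. HEY1, a Notch target, had 632 and 547 at day 10, against 327 and 245 at day 4, a log2 change of 1.05 ± 0.28, and its call was lost without shScr day 4 replicate 2 and without shScr day 10 replicate 1, with limma's adjusted p = 0.0912 and 0.0733. DLL4, a Notch ligand, fell with a log2 change of −1.73.

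Collagen genes were called about as often as all genes, in both directions. Of 32 collagen and collagen processing genes 8 were higher and 8 lower, beside 21.7% and 22.4% of all genes, at a median of 0.00; 4 were lower without shScr day 4 replicate 1 or shScr day 10 replicate 2. COL1A1, the main chain of type I collagen, had 71415 and 61449.7 normalized counts at day 10, against 104595 and 115872 at day 4, a log2 change of −0.73 ± 0.31 that was not called, with limma's adjusted p = 0.0783, but passed without either shIL1R day 10 replicate, with limma's adjusted p = 0.00180 and 0.00172. COL8A1, a short-chain collagen of vessel walls, had 2531 and 3148 at day 10, against 1185 and 1111 at day 4, a log2 change of 1.30 ± 0.14. FN1, fibronectin, had 433059 and 491242 at day 10, against 236020.0 and 212847 at day 4, a log2 change of 1.04 ± 0.17. HAPLN1, a link protein of hyaluronan, and HAS2, a hyaluronan synthase, fell with log2 changes of −3.19 and −1.89, while HYAL1, a lysosomal hyaluronidase, rose with 2.06. ELN, elastin, had 7.08 and 5.06 at day 10, against 52.3 and 19.9 at day 4, a log2 change of −2.25 ± 0.42. POSTN, periostin, had 2954 and 3105 at day 10, against 1942 and 1969.7 at day 4, a log2 change of 0.63 ± 0.09. Of 18 contractile and actin genes 3 were higher and 9 lower; 5 were lower without shScr day 10 replicate 1, and 1 was higher without shScr day 4 replicate 2 or shScr day 10 replicate 2. ACTA2, smooth muscle actin, had 2460.4 and 2511 at day 10, against 1634 and 1532 at day 4, a log2 change of 0.65 ± 0.15.

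Most lysosomal genes rose. Of 27 lysosome and autophagy genes 21 were higher and 1 lower, at a median of 0.77, and 21 to 23 were higher and none lower with 1 compared library left out. GPNMB, a membrane glycoprotein of lysosomes and senescent cells, had 812 and 505 normalized counts at day 10, against 49.5 and 61.5 at day 4, a log2 change of 3.51 ± 0.41. FUCA1, lysosomal fucosidase, had 95.6 and 107 at day 10, against 11.4 and 5.68 at day 4, a log2 change of 3.49 ± 0.56. CTSS, the protease cathepsin S, and SQSTM1, the autophagy receptor p62, rose by 1.70 and 1.57. The list of 23 NRF2 and antioxidant genes held 9 higher and 7 lower, beside 21.7% and 22.4% of all genes. In it FTL, ferritin light chain, had 189477 and 152799 at day 10, against 45154 and 40773 at day 4, and MT1X, a metallothionein, had 1481 and 1847 at day 10, against 117 and 117 at day 4. Their log2 changes were 1.99 ± 0.24 and 3.81 ± 0.26, and metallothionein genes are close copies. NQO1, a quinone reductase that NRF2 induces, fell with a log2 change of −1.33.

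Stress and metabolic genes gave mixed counts, beside 21.7% of all genes called higher and 22.4% lower. SLC7A11, the cystine transporter that ATF4 and NRF2 induce, had 186 and 278 normalized counts at day 10, against 1456 and 1159 at day 4, a log2 change of −2.51 ± 0.20. Of 22 ATF4 and unfolded protein response genes 11 were higher and 6 lower, but 2 were higher without shScr day 4 replicate 2 and 4 without shScr day 10 replicate 2. DDIT3, the stress factor CHOP, shows this, with 5589.8 and 7557 at day 10, against 3043 and 807 at day 4, and its log2 change of 2.05 ± 0.68 was 1.09 and not called without shScr day 4 replicate 2, and was also not called without either shScr day 10 replicate. The glycolysis and hypoxia list had 13 of 27 members higher and 1 lower, at a median of 0.29, and none was lower with any compared library left out. CA12 and CA9, carbonic anhydrases at the cell surface, rose by 2.38 and 2.24. PTGES, which makes prostaglandin E, had 75.5 and 48.6 at day 10, against 3.80 and 12.3 at day 4, a log2 change of 2.95 ± 0.49. Of 39 ribosomal protein genes 22 were higher and none lower, with a small median of 0.25, and 8, 9 and 11 were higher without shScr day 10 replicate 1, shScr day 4 replicate 2 and shScr day 4 replicate 1.

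**Figure D4:**
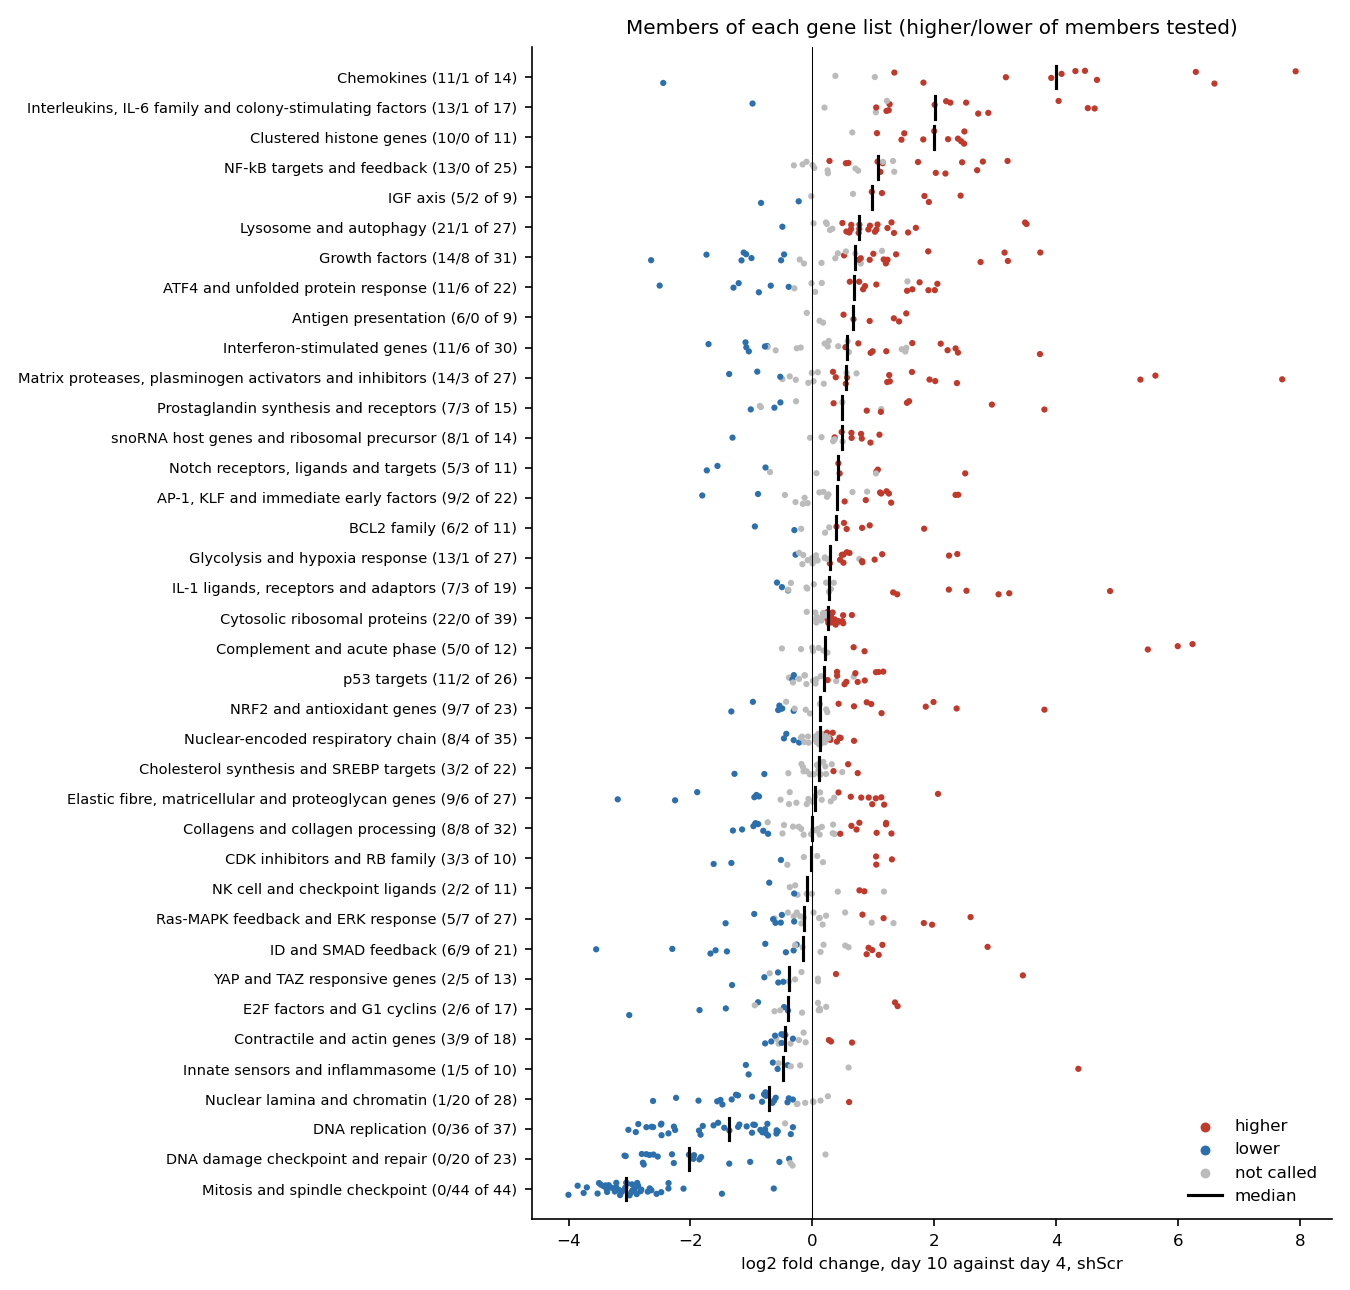
Log2 change, day 10 minus day 4 in shScr cells, of every tested member of 38 gene lists (points) with the median of each list (bar). Mitosis, with a median of −3.06, lies wholly below 0, the chemokine median is 4.00, and lists such as the collagens, at 0.00, spread to both sides.

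Endothelial markers were called higher more often than all genes, while epithelial, smooth muscle and neural markers were called about as often. The endothelial markers summed to 2622 and 2464 normalized counts at day 10, against 1921 and 1546 at day 4, and 4 of 7 tested were higher, 2 of them without shScr day 4 replicate 2 or shScr day 10 replicate 1. TIE1, a receptor of endothelial cells, had 539 and 403 at day 10, against 177 and 195 at day 4, while CDH5 was at 0 in all 4 libraries. Epithelial markers summed to 2346 and 2286 at day 10, against 2900 and 2557 at day 4. Of 4 tested, 1 was higher and 1 lower, and both calls depended on which library was left out. Smooth muscle and neural markers summed to 6526 and 7651 at day 10, against 8997 and 9404 at day 4. Of 7 tested, 1 was higher and 2 lower. Over all genes 21.7% were called higher and 22.4% lower. The part of these marker changes in other results was not tested.

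Whether the late step differed from the early one was tested within shScr cells as the day 10 minus day 4 change less the day 4 minus day 0 change. Both steps share the day 4 libraries, so no overlap between them is given. Of the genes with a called difference, 710 positive ones were also called higher in the late step and 772 negative ones lower. The difference contains the late step, so this sharing of direction is built in to some extent. In all, the difference was called positive for 993 genes (7.13%) and negative for 1191 (8.55%), 15.7% together. These counts were 323 and 330 without shScr day 4 replicate 1, 302 and 527 without shScr day 4 replicate 2, 483 and 664 without shScr day 0 replicate 1 and 601 and 748 without shScr day 0 replicate 2. They were 1640 and 1902 without shIL1R day 10 replicate 1 and 1646 and 1899 without shIL1R day 10 replicate 2. C3 had 343 and 259.5 normalized counts at day 0, then 82.8 and 62.5 at day 4, then 3168 and 3454 at day 10, so it was lower at day 4 than at day 0 and highest at day 10. Its late change exceeded its early one by 7.54 ± 0.97 on the log2 scale. CXCL5 was low until day 10, with 19.3 and 22.5 normalized counts at day 0, then 27.6 and 27.4 at day 4, then 1972 and 3864 at day 10, and its difference was 6.21. SH3RF2, an adaptor with a RING domain, had 68.9 and 46.7 at day 0, then 12.4 and 9.46 at day 4, then 116 and 132 at day 10, a dip at day 4, with a difference of 5.68.

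Other genes peaked at day 4. DACH1 had 13.8 and 16.7 normalized counts at day 0, then 134 and 134 at day 4, then 5.90 and 16.2 at day 10, a difference between steps of −6.70 ± 0.90. ANGPT2, an angiopoietin that antagonizes TIE2, had 29.4 and 36.7 at day 0, then 693 and 412 at day 4, then 142 and 131 at day 10, a difference of −5.95. MIR34AHG, the host transcript of the p53-induced microRNA miR-34a, had 514 and 426 at day 0, then 2135 and 3982 at day 4, then 972 and 497 at day 10, a difference of −4.70; reads of overlapping genes could be counted here. A negative difference also marks genes whose early rise exceeded their late change. LCE1F, a cornified envelope gene, had 10.1 and 7.51 at day 0, then 1690.3 and 2344 at day 4, then 11272 and 14575 at day 10, an early change of 7.68 beside a late one of 2.69. EGR3, an immediate early factor, had 6.43 and 2.5 at day 0, then 213 and 194 at day 4, then 151 and 115 at day 10, and its late change of −0.62 was not called. CDKN2B had 119 and 105 at day 0, then 1463 and 1818 at day 4, then 1998 and 1486 at day 10, an early change of 3.85 beside a late one of 0.08. Unlike these genes, LMNB1 fell in both steps, and by more in the early one. It had 2768 and 2561 at day 0, then 279.7 and 361 at day 4, then 82.6 and 90.1 at day 10, changes of −3.06 early and −1.87 late.

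The same late step was read in shIL1R cells, which share no library with it. There 5000 of 13924 genes were called (35.9%), 2451 higher and 2549 lower. Of the genes called higher, 1831 were called in both genotypes, 60.6% of the shScr and 74.7% of the shIL1R genes, and of those called lower 1947, or 62.3% and 76.4%. Only 5 genes were called higher in shScr and lower in shIL1R cells, and 7 the reverse. Across the 13924 genes the log2 changes had a Pearson correlation of 0.807; genes are not independent replicates. A test of the difference between the genotypes' late steps called 11 genes (0.079%). Of these, 7 (0.0503%) had a more positive change in shScr cells and 4 (0.0287%) a more negative one, and 852 and 887 did so at an unadjusted p below 0.05. CXCL5 had the greatest difference of these 11, with 1972 and 3864 normalized counts at day 10 beside 27.6 and 27.4 at day 4 in shScr cells, against 39.6 and 14.7 at day 10 beside 5.86 and 9.97 at day 4 in shIL1R cells. The late step differed by 5.06 ± 0.61 on the log2 scale, with limma's adjusted p = 0.0168.

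IRAK3 changed by 1.33 in shScr and −0.72 in shIL1R cells, and SOD2 by 2.03 and 0.49. Some secreted factors had greater late changes in shScr cells without passing the test of the difference. C3 changed by 5.50 in shScr and 1.29 in shIL1R cells, at limma's adjusted p = 0.0992 for the difference. MMP3 changed by 5.38 in shScr and 2.71 in shIL1R cells, IL6 by 2.89 and 0.71, CXCL8 by 4.67 and 1.96, and CCL3 by 7.93 and 4.91. Not every list had such a gap. The median log2 change of the insulin-like growth factor axis was 0.98 in shScr and 0.97 in shIL1R cells. For interferon-stimulated genes it was 0.56 in shScr and 1.04 in shIL1R cells. Ki-67 fell in both, as MKI67 shows with log2 changes of −2.91 in shScr and −2.46 in shIL1R cells. The number of called differences moved with the library left out, and the shIL1R day 10 replicates lay more than 2-fold apart for 1055 genes (7.58%). Without shIL1R day 10 replicate 1 it was 673 positive and 736 negative genes, and 12 and 8 without shIL1R day 10 replicate 2. It was 10 and 10 without shIL1R day 4 replicate 1, 2 and 0 without shIL1R day 4 replicate 2, and 4 and 1 without either shIL1R day 0 replicate. It was 0 of each without any 1 of the shScr libraries of days 0 and 4, without shScr day 10 replicate 2, or with the 8 libraries of days 4 and 10 alone.

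**Figure D5:**
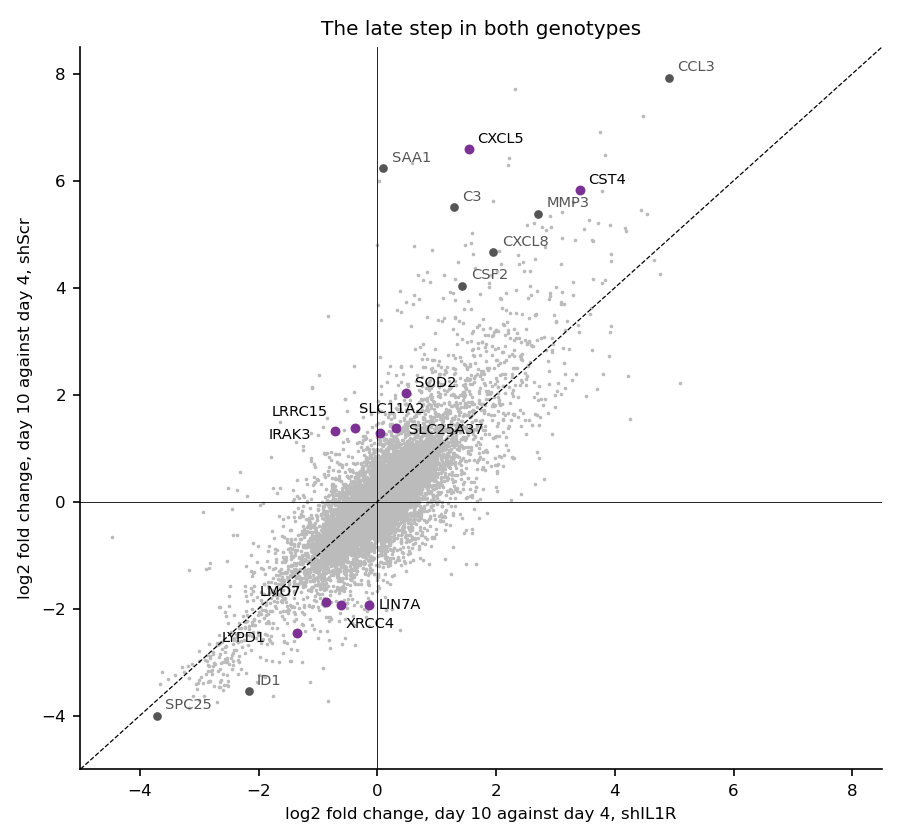
Log2 change, day 10 minus day 4, in shScr cells (vertical axis) and in shIL1R cells (horizontal axis) for 13924 genes; purple points are the 11 genes whose changes differed and the dashed line is equality. The changes have a Pearson correlation of 0.807, and of the 11 genes CXCL5, at 6.60 in shScr and 1.54 in shIL1R cells, lies furthest from the line.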

How the data were processed

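Poly(A) RNA of 12 IMR90 hTERT libraries, 2 in each of 6 groups, was sequenced from strand-specific libraries per the labels' protocols. Alignment to hg19 with TopHat, counting with HTSeq and normalization with DESeq2 are named in the submitters' processing notes with no version; which annotation and strand option HTSeq used is not given in the sources used here, so reads of overlapping genes cannot be assigned surely. The deposited values are a signal of reads per gene divided by a size factor per library, that is normalized counts made by the authors, and every value was a whole number of reads within 0.001 after scaling. Reads per library and the depth they give are in the report; intervals on ratios cover counting error only.

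Genes with 10 or more normalized counts in at least 2 of the 12 libraries were tested (13924 of 27106; 6344 were at 0 throughout). The limma code was also run on simulated data with few changed genes, unlike these data, so that run does not vouch for the counts here. Tests ran on log2(normalized count + 1) in limma 3.58.1 (R 4.3.3), which fitted 6 group means to all 12 libraries. The fit used a trended prior, 6 residual degrees of freedom, two-sided p-values and Benjamini-Hochberg adjustment, called below 0.05. Libraries of all 6 groups thus share 1 estimate of the spread. The comparison, its members and the 43 gene lists were chosen with earlier results of these data known, though libraries were grouped by label, so lists are described by counts and medians with no test. Genes named are up to 15 in each direction with the greatest stable change and 50 or more counts in the higher group. These 15 also had to show no overlap between the 4 compared libraries of the 2 days. Others are up to 4 called members per list, up to 6 per difference and direction, and a fixed list. The text names those its account turns on, and CXCL2, CXCL3, CXCL6, CXCL12, CCND2, CDK1, EZH2, FGF1, GBP1, ID2, MX1, NQO1, NRG1, TOP2A and the genes that differ between genotypes, which that rule does not name in the late step, were chosen after their values were seen. Some items are not reported here.

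Replicate numbers appear in the labels, with nothing to say what they share. Deviations of same-numbered libraries correlated between −0.102 and 0.231 over 15 pairs of groups, so the numbers were not used to pair libraries. Alternatives were other pseudocounts, filters, scalings, library sets, a replicate block, leaving out each library, and edgeR 4.0.16 and DESeq2 1.42.0 on the recovered reads. Promoters come from RefSeq, GRCh38.p14, 300 bases each; 10983 tested genes matched by symbol or by an older symbol of 1 gene, giving 10911 distinct promoters. That build differs from hg19, so no coordinate is shared with the counts.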

Additional observations from a re-analysis of the deposited data

Results flagged for a closer look

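The late step differed between shScr and shIL1R cells, by limma's test of the difference itself, for 7 genes in the positive direction and 4 in the negative one, of 13924 tested. These genes were chosen after their values were seen. Positive differences mean a change from day 4 to day 10 that was more positive in shScr cells. CXCL5 differed by 5.06 ± 0.61 on the log2 scale, changing by 6.60 in shScr and 1.54 in shIL1R cells. CST4, a secreted cystatin, differed by 2.41 ± 0.35, changing by 5.82 in shScr and 3.41 in shIL1R cells, a rise in both. IRAK3, a restraint on interleukin-1 receptor signalling, differed by 2.04 ± 0.21, with 496 and 462 normalized counts at day 10 and 190.2 and 190.2 at day 4 in shScr cells, against 112 and 88.0 at day 10 and 179.7 and 148 at day 4 in shIL1R cells. LRRC15, a membrane protein of activated fibroblasts, differed by 1.75 ± 0.26. SOD2, the mitochondrial superoxide dismutase, differed by 1.54 ± 0.18, changing by 2.03 in shScr and 0.49 in shIL1R cells. The iron transporters SLC11A2 and SLC25A37 differed by 1.23 ± 0.17 and 1.07 ± 0.15; SLC11A2 had 2488 and 2737 normalized counts at day 10 and 1164 and 999 at day 4 in shScr cells, against 1216 and 1116 at day 10 and 1015 and 1259 at day 4 in shIL1R cells.

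Among the negative differences, LMO7, an actin-linked adaptor, differed by −1.01 ± 0.15, LYPD1 by −1.10 ± 0.13, XRCC4, a scaffold of end-joining repair, by −1.32 ± 0.17 and LIN7A, a polarity protein, by −1.79 ± 0.25. XRCC4 had 81.4 and 82.0 normalized counts at day 10 and 317 and 313 at day 4 in shScr cells, against 183 and 164 at day 10 and 266 and 265 at day 4 in shIL1R cells. LIN7A changed by −1.93 in shScr and −0.15 in shIL1R cells. Limma's adjusted p ran from 0.0114 for IRAK3 to 0.0474 for LRRC15, and each of the 11 calls was lost in 5 to 10 of the 12 fits that left out 1 library. Why these genes differed was not tested.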

How the results depend on the processing

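The late step in shScr cells kept its scale in the alternatives run. With 1 library left out it held between 2063 and 3487 higher and between 2262 and 3590 lower genes; edgeR called 2996 higher and 3199 lower, and DESeq2 2933 and 2941. Only a threshold of 2-fold moved the counts by over 1.5 times, to 1048 and 880. Scaling moved the median of all genes by at most −0.03 on the log2 scale, and the share of higher genes among those called was 49.2% here, 47.4% with TMM and 46.7% with quantile scaling. With the replicate block over 12 libraries 3043 were higher and 3094 lower; in the 4 compared libraries alone 2860 and 2746 with the block and 3137 and 3025 without it. Crossing the replicate numbers there, chosen after seeing the data, gave 3662 and 3547.

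The difference between genotypes was the least stable result of those compared here. Leaving out 1 library gave 0 to 673 positive and 0 to 736 negative genes, the 8 libraries of days 4 and 10 alone 0 and 0, and DESeq2 70 and 79; a pseudocount of 5 gave 16 positive and quantile scaling 11. The difference between steps gave 302 to 1646 positive and 330 to 1902 negative genes with 1 library left out, 598 and 626 at 2-fold, and 1581 and 1852 in the 6 shScr libraries alone. The replicate block left these at 7 and 4, and 985 and 1181. The causes were not tested. Over the named genes, 205 of them in the late step, and all settings other than leaving out a library, 15 values gained the call, 26 lost it and none reversed; leaving out 1 library, 10 gained it and 105 lost it. It also turned the sign of 3 uncalled genes: CDKN2B ran between −0.13 and 0.29, EGR1 between −0.88 and 0.0741, and IL1R1 between −0.26 and 0.0915. CDKN2B and EGR1 turned without shScr day 4 replicate 1, CDKN2B also without shScr day 10 replicate 1, and IL1R1 without shScr day 10 replicate 2. With 2 libraries a group, depth limits genes of few reads, such as MMP9 and CES1, to bounds.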

Other observations

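Calls in the late step were counted by transcript class, with no test between classes. Of 12650 protein-coding genes matched by symbol to RefSeq, 2886 were higher and 2977 lower at day 10, or 46.3% together. Of 639 long non-coding RNA genes 71 were higher and 71 lower, or 22.2%, and of 58 small nucleolar RNA genes none was higher and 11 lower, with a median log2 change of −0.60. By limma, 44.1% of all tested genes were called, 21.7% higher and 22.4% lower. Read depth per gene in each class was not compared, and its part in these shares was not tested. Small nucleolar RNAs are mostly cut from introns and lack poly(A) tails, and the libraries were made from poly(A) RNA.

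Of 14 snoRNA host and ribosomal precursor genes 8 were higher and 1 lower, at a median of 0.49, and 5 were higher without shScr day 10 replicate 1. The precursor RNA45S5 took 2.52% and 2.51% of normalized counts in the day 10 libraries, against 1.79% and 3.41% in the day 4 libraries, which lay on both sides of day 10.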
